A study of Mus musculus with 18 samples.

Results

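Mdh2, the gene of mitochondrial malate dehydrogenase, was followed together with 8 other genes of citric acid cycle enzymes or their cytosolic counterparts in RNA-seq libraries of dendritic cells from mouse spleen. The 9 genes (Mdh2, Mdh1, Idh1, Idh2, Idh3a, Cs, Ogdh, Sdha and Fh1) were taken by gene name out of the 24614 genes of the deposited tables, with 48 transcripts between them. All 9 passed the filter on low counts, which left 13381 genes. The genes were selected on measured values, with the differences between these groups in the same libraries already known. Their own values are therefore given as a description, without a p-value. How many of them passed a threshold is given beside the share of all genes, and nothing is read from it. Test results are read only for other genes. The lists of other genes were also chosen with earlier results of these data known, and their p-values make no allowance for that. The libraries came from wild-type (WT) mice and mice lacking ADAM10 (KO), all of the C57BL/6 strain. ADAM10 is a membrane protease that sheds surface proteins and cuts Notch receptors. Living CD11c+MHCII+ cells were sorted into CD4+ cDC2, cDC2 without CD4 or CD8 (called CD4- below) and CD8+ cDC1, with 3 libraries for each genotype and population, 18 in all. The promoter or Cre line behind the KO, the age of the mice and whether the libraries of a group came from separate animals are not given in the sources used here. P-values therefore reflect only how far these libraries varied, and some of that variation may be technical.

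The citric acid cycle runs in the mitochondrial matrix, where citrate synthase joins acetyl groups to oxaloacetate and a ring of dehydrogenases releases carbon dioxide and loads electron carriers for respiration. Mdh2 closes the ring by oxidising malate to oxaloacetate, and together with cytosolic Mdh1 it also carries reducing power across the mitochondrial membrane in the malate-aspartate shuttle. Citrate and isocitrate can leave the mitochondrion, and in the cytosol Idh1 makes NADPH from isocitrate. In dendritic cells and macrophages the cycle is known to be rewired during activation.

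The library labels and the sort were checked first. Adam10 was lower in KO in CD4+ cells (log2 difference -1.18 ± 0.22 SE, adjusted p = 0.0005 by edgeR's quasi-likelihood test), in CD4- cells (-1.25 ± 0.22, adjusted p = 0.000552) and in CD8+ cells (-1.15 ± 0.23, adjusted p = 0.00187). WT library 3 had the most Adam10 in each population, and without it the log2 difference was -0.92, -1.03 and -0.85, with adjusted p = 0.00379, 0.00366 and 0.0125. Cd4 lay between 400.5 and 476.3 CPM, the counts of a gene divided by the scaled total of its library, in CD4+ libraries and at most at 6.926 CPM elsewhere, and Cd8a lay between 520.6 and 1139 CPM in CD8+ libraries and at most at 6.404 CPM elsewhere. Markers of other cells moved with the genotype. Beside the counts below, 18.5% of all genes tested were called higher and 16.6% lower in KO CD4+ cells. The shares were 14.6% and 11.3% in KO CD4- and 7.01% and 8.68% in KO CD8+ cells. Of 8 monocyte markers, 8 were higher in KO CD4+ and 7 in KO CD4- cells, and their summed level was 2271 to 2680 CPM in WT CD4+ and 12390 to 16180 CPM in KO CD4+ libraries, 2303 to 2614 and 8463 to 11530 CPM in CD4-, and 448.0 to 580.1 and 1548 to 1752 CPM in CD8+, where 2 of the 8 were called higher and 2 lower. All 12 cell cycle genes fell in KO CD4+ and 11 of 12 in KO CD4- cells, while 2 of 12 rose in KO CD8+ cells. T cell and NK cell markers summed to 148.0 to 293.1 and 338.8 to 721.3 CPM in WT CD4- libraries and to 14.16 to 53.32 and 142.6 to 201.4 CPM in KO CD4- libraries. In CD4+ cells the NK cell sums went the other way, from 29.8 to 33.04 CPM in WT to 52.02 to 77.09 CPM in KO, with 1 of 8 markers called higher. Of 8 T cell markers, 1 was higher and 1 lower there. In KO CD8+ cells 2 of 8 T cell and 4 of 8 NK cell markers were lower. Of 10 red pulp macrophage markers, 7 were higher and 1 lower in KO CD4+ cells, with sums of 600.5 to 681.3 CPM in WT and 1117 to 1250 CPM in KO. Of these 10, 3 were higher and 1 lower in KO CD4- and 0 and 3 in KO CD8+ cells. Of 6 erythroid markers tested, 5 were higher in KO CD4+ cells (18.36 to 46.58 against 72.40 to 254.0 CPM) and 4 in KO CD8+ cells (63.03 to 80.83 against 155.0 to 303.5 CPM). B cell markers summed to 36.44 to 50.52 CPM in WT CD8+ and 11.44 to 18.32 CPM in KO CD8+ libraries, with 3 of 7 lower. cDC2 markers summed to 201.9 to 293.9 CPM in WT CD8+ and 47.15 to 87.33 CPM in KO CD8+ libraries, with 6 of 8 lower. Of these 8, 2 were higher and 3 lower in KO CD4+ and 2 and 4 in KO CD4- cells. Of 8 cDC1 markers, 4 were higher in KO CD4+, 5 in KO CD4- and 1 in KO CD8+ cells, where 1 was lower. Of 6 markers of all cDC, 4 were higher and 1 lower in KO CD4+, 4 and 0 in KO CD4-, and 2 and 1 in KO CD8+ cells. The part of these cells in the results below was not tested, and in sorted bulk RNA fewer cells of a type and less RNA per cell cannot be told apart.

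The 7 transcripts of Mdh2 in the tables come from chr5:135778480-135790398 on the plus strand of GRCm38. They differ at exons 2 and 3, among others, and the letters at the joins are shown because the reads of the gene were divided among these forms. The lower-case bases end the exon before the join and the capitals begin the exon after it, 20 on each side. Mdh2-201 carries 9 exons, 1456 bases and the full coding sequence of 1014 bases, and its exon 1 (322 bases) joins exon 2 (169 bases, chr5:135783305-135783473). Mdh2-203 has 8 exons and 1112 bases, skips exon 2 and is annotated as a target of nonsense-mediated decay, with a coding sequence of 153 bases. Mdh2-205, a fragment of 506 bases, keeps exon 2 and skips exon 3.
Mdh2-201, exon 1 to exon 2: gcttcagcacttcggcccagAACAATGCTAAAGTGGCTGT
Mdh2-203, exon 1 to exon 3: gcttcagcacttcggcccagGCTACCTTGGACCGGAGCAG
Mdh2-205, exon 2 to exon 4: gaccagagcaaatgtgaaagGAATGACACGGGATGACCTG

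Mdh2 was most abundant in WT cDC2 and was at a like low level in all KO populations. In WT CD4+ cells the 3 libraries held 1229, 1268 and 1276 CPM (1258 ± 25.0, mean ± SD, n = 3), and in KO CD4+ cells 177.1, 205.2 and 159.8 CPM (180.7 ± 22.9). For CD4- cells the WT values were 772.9, 872.8 and 822.9 CPM (822.9 ± 50.0) and the KO values 208.9, 183.9 and 195.2 CPM (196.0 ± 12.5). For CD8+ cells the WT values were 321.6, 301.5 and 333.0 CPM (318.7 ± 15.9) and the KO values 186.5, 163.1 and 150.0 CPM (166.5 ± 18.5). No WT library overlapped with any KO library, and the 3 WT groups did not overlap with each other, while the ranges of the 3 KO groups did. Mean Mdh2 was thus 6.96-fold lower in KO than in WT CD4+ cells, 4.2-fold lower in CD4- cells and 1.91-fold lower in CD8+ cells. On the log2 scale the KO minus WT difference was -2.80 ± 0.10 (SE), -2.07 ± 0.10 and -0.94 ± 0.10. Without WT library 3, where Adam10 was highest, it was -2.79, -2.10 and -0.90. The difference in CD4+ cells exceeded that in CD8+ cells by -1.86 ± 0.14 and that in CD4- cells by -0.73 ± 0.13. Among the 13381 genes ranked by mean CPM, Mdh2 stood at place 81 in WT CD4+ and 948 in KO CD4+ cells, at 119 and 853 in CD4- cells and at 468 and 1000 in CD8+ cells.

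**Figure D1:**
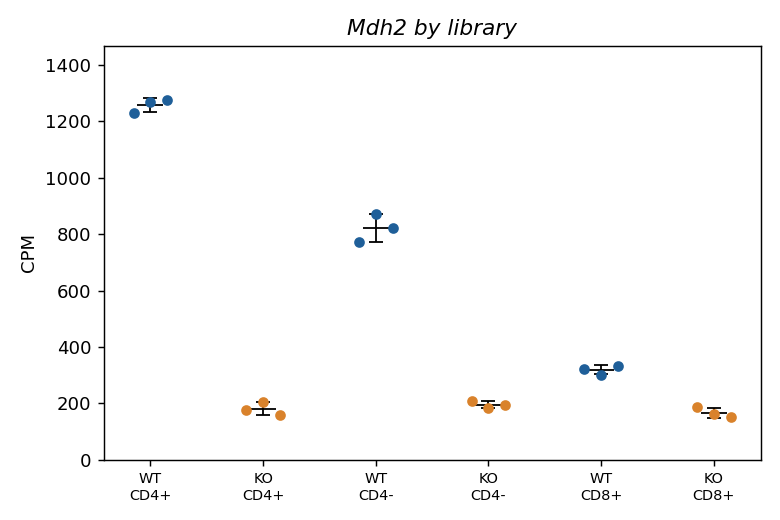
Mdh2 in CPM (vertical axis, from 0) in each of the 18 libraries (points), by genotype and population, with the mean of each group and its SD (bars, n = 3). The WT groups form 3 steps at 1258, 822.9 and 318.7 CPM, and the 3 KO groups lie together between 150.0 and 208.9 CPM.

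In the WT populations alone, Mdh2 was 3.95-fold higher in CD4+ than in CD8+ cells (log2 difference 1.98 ± 0.10), 2.58-fold higher in CD4- than in CD8+ cells (1.37 ± 0.10) and 1.53-fold higher in CD4+ than in CD4- cells (0.61 ± 0.09). These WT libraries are the ones the KO libraries were set against, so the WT order and the KO differences share data.

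Every main Mdh2 transcript was lower in the KO groups. Values per length are given as deposited in TPM, which divide the counts by transcript length and scale each library to a common sum. Mdh2-203 held 310.0, 292.5 and 335.0 TPM in WT CD4+ and 46.13, 47.97 and 41.19 TPM in KO CD4+ libraries. Mdh2-201, the form with the full coding sequence, held 90.33, 116.9 and 97.69 TPM in WT CD4+ and 7.635, 9.252 and 8.597 TPM in KO CD4+ libraries. In CD4- cells Mdh2-201 held 54.64, 83.39 and 70.38 TPM in WT and 7.228, 8.224 and 7.872 TPM in KO, and in CD8+ cells 12.49, 11.39 and 12.17 TPM in WT and 7.374, 5.824 and 1.383 TPM in KO. None of the WT and KO ranges of Mdh2-201 overlapped within a population, and KO CD8+ library 3 was far below its 2 companions. As a share of the estimated counts of the gene, Mdh2-201 took 24.8% ± 3.77 in CD4+ WT against 16.4% ± 1.55 in CD4+ KO cells (mean ± SD, n = 3). For CD4- cells the WT and KO shares were 21.8% ± 2.55 and 13.0% ± 1.62, and for CD8+ cells 11.8% ± 0.557 and 10.1% ± 6.28. KO CD8+ library 3 alone (2.95%) puts that KO mean below WT, since the other KO libraries, at 14.8% and 12.6%, lay above all 3 WT libraries. The share was lower in every KO than in every WT library of CD4+ and of CD4- cells, and the CD8+ ranges overlapped. Mdh2-203 took the largest share in all 6 groups, from 50.8% ± 1.96 in WT CD4+ to 64.0% ± 3.12 in KO CD8+ cells. Mdh2-205 and Mdh2-207, a pair of short partial coding forms, took 14.6% to 16.8% and 9.16% to 12.9% of the counts by group, and the 3 forms annotated with a retained intron each reached at most 3.22 TPM in any library. Most of the sequence is shared between these forms, so the division is an estimate by Salmon, the authors' quantifier, and reads across the joins were not analysed here.

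**Figure D2:**
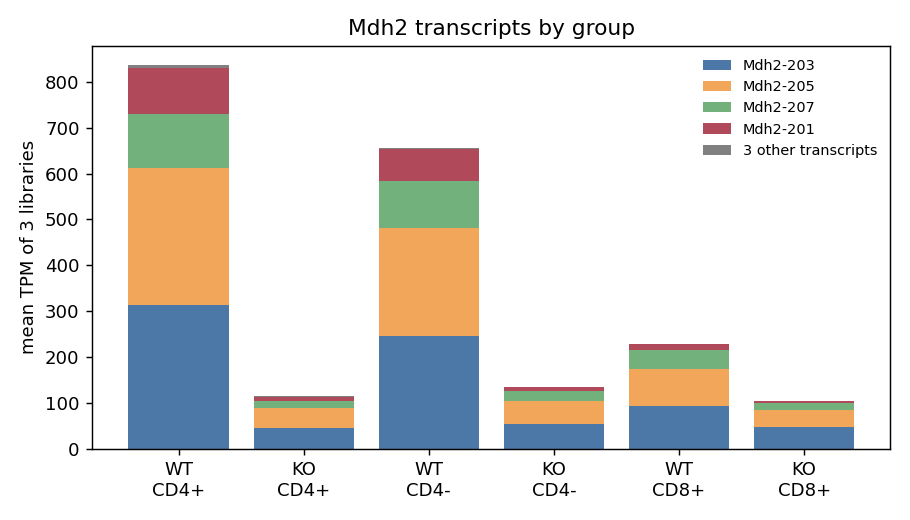
Mean TPM of 3 libraries (vertical axis, from 0) for the Mdh2 transcripts, stacked, in the 6 groups. Mdh2-203 is the lowest block, at 312.5 TPM in WT CD4+ and 45.1 TPM in KO CD4+ cells, and Mdh2-201 shrinks from 101.6 to 8.50 TPM between the same groups.

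Idh1, the cytosolic isocitrate dehydrogenase, differed from WT in opposite directions in cDC2 and cDC1. In CD4+ cells the WT values were 20.06, 18.77 and 19.75 CPM and the KO values 54.89, 59.55 and 57.61 CPM, a log2 difference of 1.55 ± 0.10. In CD4- cells WT stood at 23.56, 24.71 and 26.60 CPM against 43.00, 46.88 and 44.91 CPM for KO, a difference of 0.85 ± 0.10. In CD8+ cells WT was the higher one, at 57.52, 46.74 and 44.20 CPM against 27.71, 22.66 and 22.99 CPM for KO, a difference of -1.02 ± 0.10. WT and KO did not overlap in any population, and KO CD4+ cells lay near WT CD8+ cells while KO CD8+ cells lay near WT CD4- cells. Idh1 was 2.94-fold higher in KO CD4+, 1.80-fold higher in KO CD4- and 2.02-fold lower in KO CD8+ cells. Its form Idh1-201 held at least 91.1% of the counts of the gene on average in every group and 61.9% to 81.0% of its TPM. Mean TPM of Idh1-201 went from 5.01 in WT to 13.4 in KO CD4+ cells and from 12.4 to 5.39 in CD8+ cells. The second form, Idh1-202, turned the same way, from 2.07 to 5.13 TPM in CD4+ and from 7.55 to 2.84 TPM in CD8+ cells.

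Idh2 and Idh3a, which encode mitochondrial isocitrate dehydrogenases, were lower in KO. Idh2, which uses NADP, held 91.31, 76.24 and 76.80 CPM in WT CD4+ and 59.15, 67.06 and 64.49 CPM in KO CD4+ libraries. It held 71.21 to 74.92 CPM in WT and 57.70 to 61.46 CPM in KO CD4- libraries, and 87.10 to 100.3 and 63.59 to 68.72 CPM in CD8+ libraries. The groups did not overlap, and the log2 differences were -0.36 ± 0.08, -0.30 ± 0.08 and -0.54 ± 0.08. Idh3a, the catalytic subunit of the NAD-dependent enzyme of the cycle, held 72.52, 71.01 and 73.20 CPM in WT CD4+ and 54.78, 49.13 and 54.68 CPM in KO CD4+ libraries (log2 difference -0.45 ± 0.07). Its differences were smaller in CD4- cells (-0.22 ± 0.07) and CD8+ cells (-0.10 ± 0.07), where the WT libraries lay just above the KO ones. Of the Idh3a counts, the full coding form Idh3a-201 took 32.0% to 42.9% by group and a form annotated for nonsense-mediated decay, Idh3a-204, 38.8% to 54.7%.

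Cs, Ogdh, Sdha and Fh1 differed by at most 0.45 on the log2 scale between genotypes. Cs, citrate synthase, held 330.3, 351.8 and 332.0 CPM in WT CD4+ and 302.1, 257.0 and 274.3 CPM in KO CD4+ libraries (-0.28 ± 0.07). In CD4- and CD8+ cells its WT and KO ranges overlapped (0.07 ± 0.07 and 0.01 ± 0.07). Ogdh, the first subunit of the 2-oxoglutarate dehydrogenase complex, held 219.8 to 223.3 CPM in WT and 178.8 to 195.1 CPM in KO CD4+ libraries (-0.26 ± 0.08), with differences of -0.19 ± 0.08 in CD4- and -0.17 ± 0.08 in CD8+ cells, the last with overlapping groups. Sdha, the flavoprotein subunit of succinate dehydrogenase, stayed between 232.9 and 285.4 CPM in all 18 libraries, with differences of 0.03 ± 0.06, 0.08 ± 0.06 and -0.07 ± 0.06, and its genotypes overlapped in CD4+ and CD8+ cells. Fh1, fumarase, held 106.9, 120.0 and 101.5 CPM in WT CD4- and 155.7, 153.1 and 141.1 CPM in KO CD4- libraries (0.45 ± 0.08). On log2(TPM + 1) this difference was only 0.06, with overlapping TPM, beside a median of -0.22 over all genes. After scaling of the TPM between libraries it was 0.33. Fh1 overlapped between genotypes in CD4+ cells (0.15 ± 0.08) and was slightly lower in KO CD8+ libraries, at 102.5 to 113.3 against 117.8 to 123.4 CPM (-0.17 ± 0.08).

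Mdh1, the cytosolic partner of Mdh2, did not share its pattern. It held 192.2, 211.4 and 219.8 CPM in WT CD4+ and 165.2, 143.6 and 148.9 CPM in KO CD4+ libraries (-0.45 ± 0.07). It held 192.1 to 200.6 CPM in WT and 160.9 to 184.8 CPM in KO CD4- libraries (-0.18 ± 0.07). In CD8+ cells KO libraries were the higher ones, with 297.6, 291.4 and 284.7 CPM against 269.5, 260.2 and 251.5 CPM in WT (0.16 ± 0.07). Mdh1 was highest in CD8+ cells, where Mdh2 was lowest among the WT populations.

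**Figure D3:**
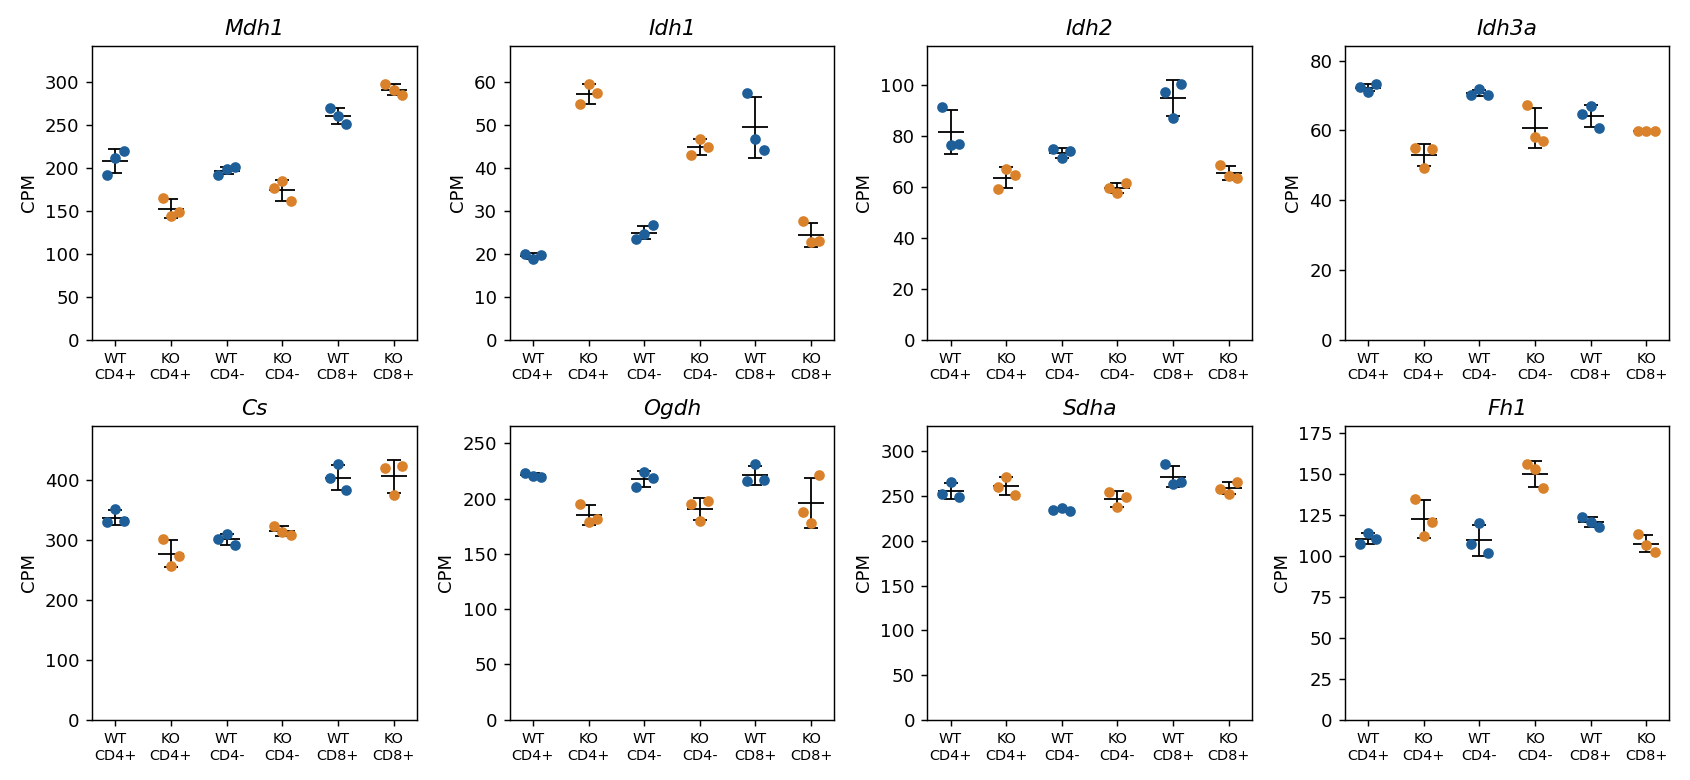
CPM (vertical axes, from 0) of the other 8 genes in each library (points), by genotype and population, with the group mean and SD (bars, n = 3). Idh1 is higher in KO than in WT in CD4+ and CD4- cells and lower in CD8+ cells, and Sdha stays between 232.9 and 285.4 CPM throughout.

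Among the 9 genes, 7 passed an adjusted p of 0.05 for KO against WT in CD4+ cells, beside 35.1% of all genes tested. Of these, 1 was higher and 6 were lower in KO, beside 18.5% and 16.6% of all genes. In CD4- cells 5 passed (25.9% of all genes), 2 higher and 3 lower (14.6% and 11.3%). In CD8+ cells 3 passed (15.7%), 0 higher and 3 lower (7.01% and 8.68%). As the genes were picked with these contrasts known, nothing is read from these counts. Ogdh no longer passed in CD4+ cells without KO library 2, and Idh3a no longer passed in CD4- cells without KO library 2 or 3. Idh3a was also lost there without a filter on low counts and in a fit of only the groups compared. On log2(TPM + 1) the counts for CD4+, CD4- and CD8+ cells were 7, 6 and 4, with Fh1 lost in CD4- cells. After scaling of the TPM between libraries they were 5, 6 and 3, with Idh2 and Ogdh lost in CD4+ cells. The median log2 difference of the 9 genes was -0.28 in CD4+, -0.18 in CD4- and -0.17 in CD8+ cells, beside 0.02, 0.02 and 0.00 over all genes. Between WT populations, 5 of 9 passed for CD4+ against CD8+ (45.6% of all genes), 1 higher and 4 lower (22.6% and 23.0%). For CD4- against CD8+ 6 passed (42.9%), 1 higher and 5 lower (21.9% and 21.0%), and for CD4+ against CD4- 2 passed (16.7%), 1 in each direction (7.12% and 9.63%). On log2(TPM + 1) the CD4- against CD8+ count was 3, with Mdh1, Idh2, Cs and Sdha lost. The CD4+ against CD8+ count was then 4, with Idh2 lost, and the CD4+ against CD4- count 1, with Idh1 lost. Without a filter on low counts, and in a fit of only the groups compared, Idh2 was lost for CD4+ against CD8+. Sdha was lost for CD4- against CD8+ in the same settings. Idh1 no longer passed for CD4+ against CD4- without any 1 of the WT CD4+ libraries or WT CD4- library 3, which left 1, and Idh2 no longer passed for CD4+ against CD8+ without WT CD4+ library 2 or 3 or WT CD8+ library 1 or 3. Sdha no longer passed for CD4- against CD8+ without WT CD4- library 3, nor Cs for CD4+ against CD8+ without WT CD8+ library 2. The KO effects of 4 genes passed as different between CD4+ and CD8+ cells (22.1% of all genes), 1 higher and 3 lower in CD4+ (12.6% and 9.54%). Between CD4- and CD8+ cells 4 passed (13.2%), 2 in each direction (8.24% and 4.92%), and between CD4+ and CD4- cells 2 passed (3.76%), 1 in each direction (2.48% and 1.28%). On log2(TPM + 1) these 3 counts were 3, 2 and 1, with Idh3a, then Mdh1 and Fh1, then Idh1 lost. Fh1 was also lost between CD4- and CD8+ cells after scaling of the TPM between libraries. Mdh1 was lost between CD4- and CD8+ cells without WT CD4- library 2 or 3 or KO CD4- library 1 or 3. It was lost as well without WT CD8+ library 2 or 3 or KO CD8+ library 1 or 2. Without a filter on low counts Mdh1 was lost there and Idh3a between CD4+ and CD8+ cells. On the scale of log2(TPM + 1) the median of all genes itself lay at -0.13, -0.22 and -0.16 in the 3 KO comparisons. On that scale Cs in CD4- (-0.22) and CD8+ cells (-0.17), Mdh1 in CD8+ cells (-0.05), Sdha in CD4+ (-0.07) and CD4- cells (-0.14) and Fh1 in CD4+ cells (-0.01) had the other sign. After scaling of the TPM between libraries, which was chosen after seeing this shift, the 9 genes had the signs of the CPM in all 3 KO comparisons.

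**Figure D4:**
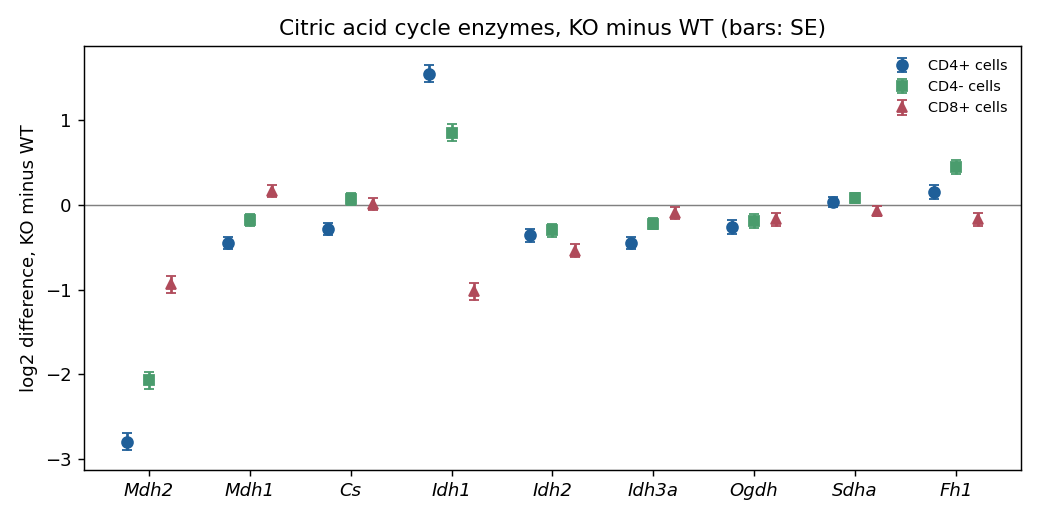
KO minus WT difference on the log2 scale (vertical axis) with its SE (bars) for the 9 genes in CD4+, CD4- and CD8+ cells. Mdh2 lies at -2.80, -2.07 and -0.94, Idh1 at 1.55, 0.85 and -1.02, and the other 7 genes lie between -0.54 and 0.45.

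Levels can be set against each other between genes only per length. In WT CD4+ cells the TPM summed over transcripts were 836.8 ± 47.8 for Mdh2, 116.9 ± 12.6 for Mdh1, 65.9 ± 4.75 for Fh1, 60.8 ± 1.02 for Cs, 46.2 ± 7.63 for Idh2, 26.1 ± 1.34 for Ogdh, 22.1 ± 1.09 for Idh3a and 7.08 ± 1.51 for Idh1. The libraries of Fh1 and Cs overlapped, and no other neighbours in this order did. In KO CD4+ cells Mdh2 held 113.7 ± 9.33, Mdh1 77.8 ± 4.89, Fh1 65.9 ± 10.3, Cs 45.3 ± 3.66, Idh2 32.2 ± 5.55, Ogdh 20.1 ± 0.897, Idh1 18.7 ± 1.67 and Idh3a 14.9 ± 1.43 TPM. Here Idh1 stood above Idh3a with no overlap. Sdha stands outside this order, because its gene total of 716.3 ± 80.3 TPM in WT CD4+ cells came mostly from a pair of very short transcripts, Sdha-204 (239 bases, 378.1 TPM) and Sdha-207 (198 bases, 243.1 TPM), while the full coding form Sdha-201 took 75.9% of the counts at 36.9 TPM. The place of Mdh2 rests on short forms too, since in KO CD4+ cells Mdh2-205 and Mdh2-207 held 43.5 and 15.9 TPM of its total and Mdh2-201 held 8.50 TPM.

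The genes whose log2 CPM were most like those of Mdh2 over the 18 libraries, among 9803 genes of at least 5 CPM, were Arap2 (Pearson r = 0.984), Slc12a2 (0.984), Rundc3b (0.980), Esam (0.974) and Slc9a3r1 (0.973). Arap2 held on average 120.0, 69.0 and 13.0 CPM in WT CD4+, CD4- and CD8+ cells and 7.84, 7.40 and 5.69 CPM in the KO groups. Slc12a2, a sodium, potassium and chloride carrier, averaged 185.0, 114.0 and 25.8 CPM in the same WT order and 12.6, 12.4 and 12.7 CPM in the KO groups. The lowest values were those of Npc2 (-0.981), Sdc3 (-0.977), Scarb2 (-0.977), Clec12a (-0.976) and S100a1 (-0.969). Within the cycle r with Mdh2 was 0.831 for Idh3a, 0.679 for Ogdh, 0.526 for Idh2, -0.01 for Mdh1, -0.117 for Cs, -0.306 for Sdha, -0.411 for Fh1 and -0.643 for Idh1. Of the other cycle enzymes, Dlst had the highest value (0.908) and Idh3g (-0.798) and Idh3b (-0.716) the lowest. The points share genotype, population and library, so these values describe a pattern over 6 groups.

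The nearest gene to Mdh2 on the chromosome is Styxl1, which encodes a phosphatase-like protein. It lies on the minus strand (chr5:135747220-135778385), so its start is 95 bases from that of Mdh2 and the pair is transcribed in opposite directions. Styxl1 had few reads, with 25, 21 and 17 in the WT CD4+ and 1, 2 and 0 in the KO CD4+ libraries. The KO level was 4.50% of the WT level, with a 95% interval of 0.903% to 13.8% (exact Clopper-Pearson, counting error only). It fell in KO CD4+ cells (adjusted p = 0.000877 by edgeR, lower in 3 of 3 libraries). In CD4- cells it had 10, 14 and 8 reads in WT and 4, 0 and 1 in KO (adjusted p = 0.0248), a call lost without WT library 2 (adjusted p = 0.0812), KO library 2 (0.0753) or KO library 3 (0.0801) and in a fit of only the WT and KO CD4- groups (0.0551). In CD8+ cells it had 6 reads in all in WT and 0 in KO, too few for a difference to be detectable (adjusted p = 0.0703). Of the other genes within 100 kb, Por, which passes electrons to cytochrome P450 enzymes, fell slightly in KO CD8+ cells (log2 difference -0.34 ± 0.08, adjusted p = 0.00477) and did not pass in the others (-0.16 ± 0.07 and -0.19 ± 0.07). Tmem120a and Hspb1 passed in none of the 3 comparisons, with differences from -0.26 to -0.32 and from -0.49 to -0.73. Whether the library kit keeps strand is not given in the sources used here, and reads of an antisense neighbour could then not be separated, but the annotated Styxl1 and Mdh2 do not overlap.

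The other 48 genes of the pathway, listed by function, show how far the rest of the cycle moved. Their lists were chosen with earlier results of these data known, so the p-values below do not allow for that choice. Of these, 44 were tested. In KO CD4+ cells 8 rose and 12 fell (45.5%, beside 35.1% of all genes), in KO CD4- cells 5 rose and 5 fell (22.7%, beside 25.9%), and in KO CD8+ cells 2 rose and 3 fell (11.4%, beside 15.7%). Their median log2 difference was -0.02, 0.06 and 0.01, against 0.02, 0.02 and 0.00 over all genes. On log2(TPM + 1), with its shifted centre, the split was 1 higher and 13 lower in CD4+, 1 and 11 in CD4-, and 0 and 10 in CD8+ cells. After scaling of the TPM between libraries it was 3 and 7, 3 and 2, and 1 and 3. The CD4+ count was 13 without WT library 3 or KO library 2, the CD4- count 6 without WT library 2 or 3 and 4 without KO library 3, and the CD8+ count 3 without WT library 3.

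**Figure D5:**
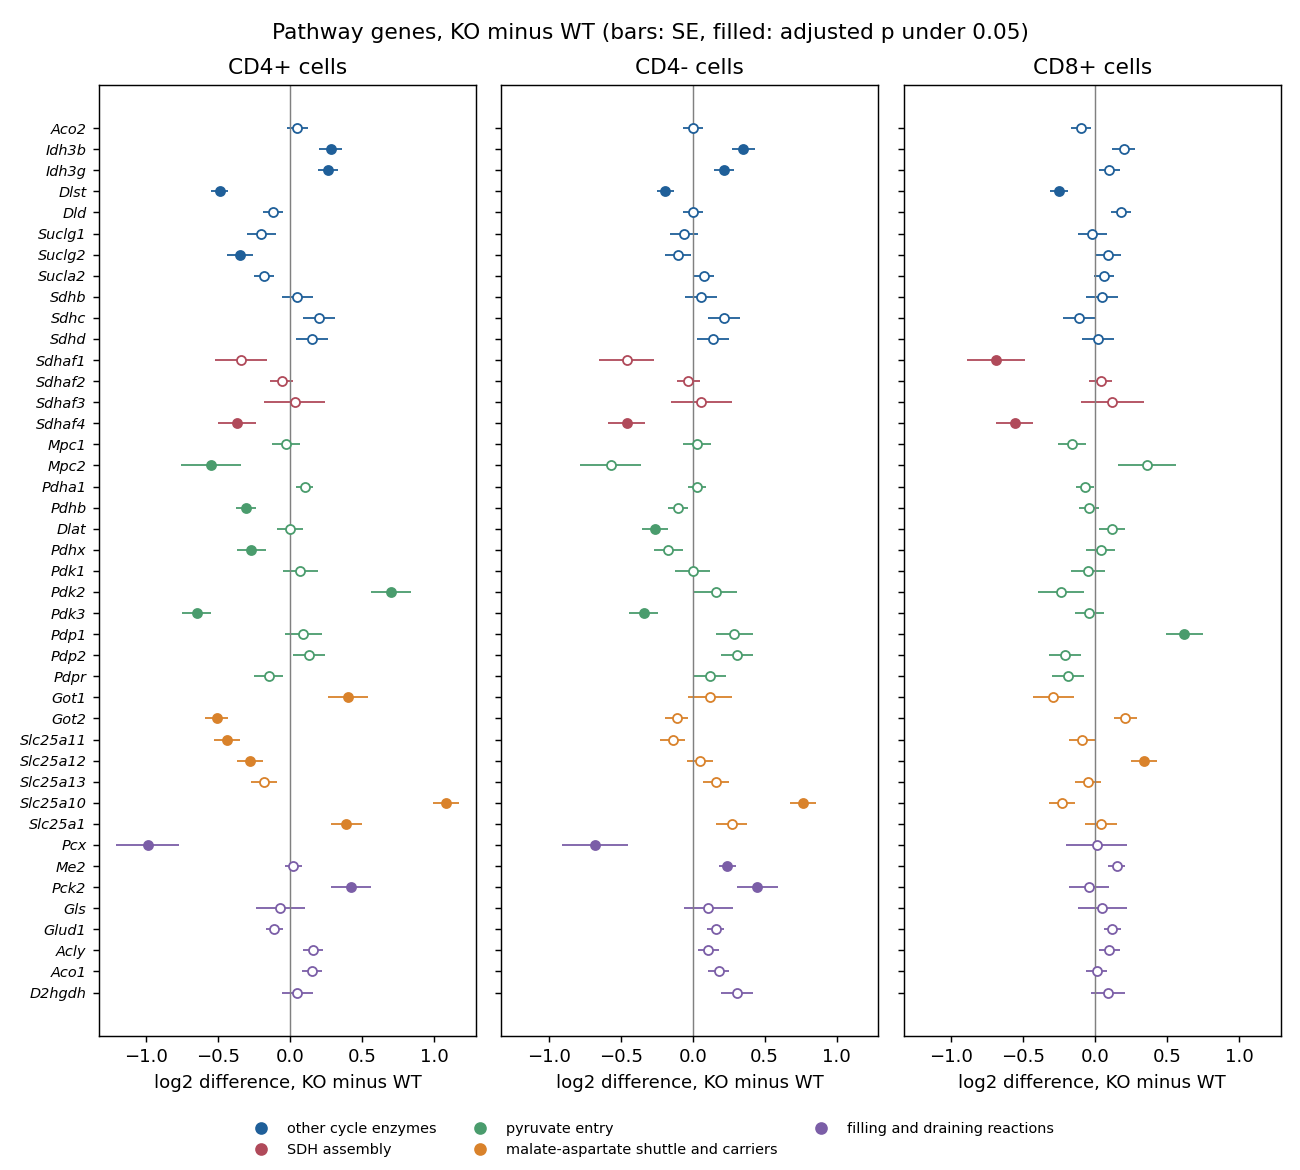
KO minus WT difference on the log2 scale (horizontal axes) with its SE (bars) for 42 of the 44 tested pathway genes in CD4+, CD4- and CD8+ cells, coloured by list and filled where the adjusted p was under 0.05. Acod1, with few reads, is among those left out, and Slc25a10 lies at 1.08 and 0.77 in CD4+ and CD4- cells.

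Among other enzymes of the cycle (11 of 12 tested), 2 rose and 2 fell in KO CD4+ (36.4%, beside 35.1% of all genes), 2 rose and 1 fell in KO CD4- (27.3%, beside 25.9%), and 1 fell in KO CD8+ cells (9.09%, beside 15.7%). Dlst, the succinyl-transferring core of the 2-oxoglutarate dehydrogenase complex, fell in all 3. Its mean went from 150.6 to 107.3 CPM in CD4+ cells (log2 difference -0.49 ± 0.06, adjusted p = 1.05e-05 by edgeR). The fall was smaller in CD4- cells (-0.19 ± 0.06, adjusted p = 0.0327) and CD8+ cells (-0.25 ± 0.06, adjusted p = 0.0105). The CD8+ call was lost without KO library 2 (adjusted p = 0.0539), and the CD4- call without WT library 1, KO library 2 or KO library 3 (0.0608 to 0.141). Dlst, with r = 0.908, was also the list gene most like Mdh2. Idh3b and Idh3g, the regulatory subunits that pair with Idh3a, rose in KO cDC2 while Idh3a was lower there. Idh3b went from 82.3 to 100.3 CPM in CD4+ (0.28 ± 0.08, adjusted p = 0.00784) and from 82.3 to 105.0 CPM in CD4- cells (0.35 ± 0.08, adjusted p = 0.00266), the first being lost without KO library 1 (adjusted p = 0.0534). Idh3g rose by 0.26 ± 0.07 in CD4+ cells (adjusted p = 0.0108), a call lost without KO library 2 (0.0677), and by 0.22 ± 0.07 in CD4- cells (adjusted p = 0.0319), a call lost without any of WT libraries 1 to 3, KO library 1 or KO library 3 (0.0753 to 0.174) and with the other sign on log2(TPM + 1) (-0.03). Across the 9 other processing settings the Idh3b difference ranged from 0.15 to 0.31 in CD4+ and from 0.09 to 0.35 in CD4- cells. That of Idh3g ranged from 0.08 to 0.26 in CD4+ cells, so the size of these rises depends on the processing. Suclg2, a subunit of the GTP-forming succinyl-CoA synthetase, fell in CD4+ cells (44.7 to 35.0 CPM, -0.35 ± 0.09, adjusted p = 0.00453). Of the 4 assembly factors of succinate dehydrogenase, Sdhaf4 fell in CD4+ (-0.37 ± 0.13, adjusted p = 0.0392), CD4- (-0.46 ± 0.13, 0.0195) and CD8+ cells (-0.56 ± 0.13, 0.00716). The CD4+ call was lost without all but KO library 1 (0.0565 to 0.156) and the CD4- call without WT library 2, KO library 1 or KO library 3 (0.0572 to 0.0808). Sdhaf1 fell in CD8+ cells (-0.69 ± 0.20, adjusted p = 0.0237), a call lost without WT library 1, WT library 3 or KO library 3 (0.0528 to 0.0948).

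Pyruvate enters the cycle through its carrier Mpc1 and Mpc2 and the pyruvate dehydrogenase complex, which Pdk kinases switch off and Pdp phosphatases switch on. Of 12 genes tested, 1 rose and 4 fell in KO CD4+ (41.7%, beside 35.1% of all genes), 2 fell in KO CD4- (16.7%, beside 25.9%) and 1 rose in KO CD8+ cells (8.33%, beside 15.7%). In CD4+ cells Pdk3 fell from 65.4 to 41.6 CPM (-0.65 ± 0.10, adjusted p = 9.92e-05 by edgeR), Pdhb, a subunit of the first enzyme of the complex, fell from 66.2 to 53.4 CPM (-0.31 ± 0.07, adjusted p = 0.00392) and Pdk2 rose from 8.99 to 14.5 CPM (0.70 ± 0.14, adjusted p = 0.00117). Pdhx, the protein that anchors another subunit, also fell there (-0.27 ± 0.10, adjusted p = 0.0402), a call lost without WT library 1, WT library 3, KO library 2 or KO library 3 (0.0881 to 0.149). Mpc2 fell in CD4+ cells too (-0.55), a call lost without any 1 of the 6 libraries (adjusted p by edgeR 0.0537 to 0.143). Pdk3 fell in CD4- cells as well (-0.34 ± 0.10, adjusted p = 0.0233), a call lost without WT library 2, KO library 2 or KO library 3 (0.0742 to 0.101). Dlat, the acetyl-transferring core, fell in CD4- cells (-0.26 ± 0.09, adjusted p = 0.0471), a call lost without any library but WT library 2 (0.0595 to 0.124). In CD8+ cells Pdp1 rose from 8.38 to 12.9 CPM (0.62 ± 0.13, adjusted p = 0.00331), and this call was kept without any 1 of the 6 libraries.

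Of 7 genes of the malate-aspartate shuttle and related carriers, 3 rose and 3 fell in KO CD4+ cells (85.7%, beside 35.1% of all genes), 1 rose in CD4- (14.3%, beside 25.9%) and 1 rose in CD8+ cells (14.3%, beside 15.7%). The KO effects on 0 of the 7 differed between CD4+ and CD4- cells by edgeR, with 5 at an unadjusted p under 0.05 and 1 by DESeq2. Slc25a10, the mitochondrial dicarboxylate carrier that exchanges malate or succinate for phosphate, rose from 47.9 ± 2.34 to 101.4 ± 13.4 CPM in CD4+ cells (1.08 ± 0.09, adjusted p = 1.09e-07 by edgeR) and from 44.9 ± 2.44 to 76.9 ± 3.74 CPM in CD4- cells (0.77 ± 0.09, adjusted p = 1.28e-05), higher in 3 of 3 libraries each. Both calls were kept without any 1 of the 6 libraries. Got2, the mitochondrial aspartate aminotransferase of the shuttle, fell from 241.0 to 169.6 CPM in CD4+ cells (-0.51 ± 0.08, adjusted p = 0.000174), and Slc25a11, its oxoglutarate and malate carrier, from 238.1 to 175.5 CPM (-0.44 ± 0.09, adjusted p = 0.00127). Slc25a1, the citrate carrier, rose in CD4+ cells (0.39 ± 0.11, adjusted p = 0.0128), a call lost without WT library 3 (0.0740) or KO library 2 (0.0732). Got1, the cytosolic aspartate aminotransferase, rose in CD4+ cells (0.40 ± 0.14, adjusted p = 0.039), a call lost without WT library 2 or 3 or KO library 2 or 3 (0.0812 to 0.161). Slc25a12, an aspartate and glutamate carrier, fell in CD4+ cells (-0.28 ± 0.09, adjusted p = 0.0202), a call lost without the same libraries (0.0521 to 0.0852). It rose in CD8+ cells (0.34 ± 0.09, adjusted p = 0.0111), a call lost without WT library 2 (0.0553) or WT library 3 (0.0585).

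Among genes that fill or drain the cycle (10 of 12 tested), 2 rose and 2 fell in KO CD4+ (40.0%, beside 35.1% of all genes) and 2 rose and 1 fell in KO CD4- cells (30.0%, beside 25.9%). In KO CD8+ cells 0 of 10 passed by edgeR (beside 15.7% of all genes), with 1 at an unadjusted p under 0.05 and 0 by DESeq2. Pcx, pyruvate carboxylase, which makes oxaloacetate, was low and fell from 3.24 to 1.63 CPM in CD4+ cells (-0.99 ± 0.22, adjusted p = 0.00188 by edgeR). In CD4- cells it fell by 0.68 on the log2 scale (SE 0.23, adjusted p = 0.0343), a call lost without WT library 2, WT library 3, KO library 1 or KO library 2 (0.0628 to 0.102) and with the other sign on log2(TPM + 1) without a filter (0.19). Pck2, mitochondrial phosphoenolpyruvate carboxykinase, rose in CD4+ (0.42 ± 0.14, adjusted p = 0.0257) and CD4- cells (0.45 ± 0.14, 0.0238), with overlapping groups in the latter. These calls were lost without WT library 1, WT library 2, KO library 2 or KO library 3 in CD4+ (0.0702 to 0.116) and without WT library 1, WT library 2 or KO library 3 in CD4- cells (0.0834 to 0.147). Me2, mitochondrial malic enzyme, rose in CD4- cells (0.24 ± 0.06, adjusted p = 0.0102), a call lost without WT library 3 (0.0688), and had the other sign on log2(TPM + 1) (-0.21). Acod1, which makes itaconate, had 1, 3 and 0 reads in WT and 34, 6 and 3 reads in KO CD4+ libraries (adjusted p = 0.0482), and without KO library 1 the adjusted p was 0.352. The call was lost as well without any of the 3 WT libraries (0.0656 to 0.136).

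General mitochondrial genes gave a backdrop. Transcripts of the 13 mitochondrially encoded genes took 1.85% to 2.12% of the counts by group. In KO CD4+ and in KO CD8+ cells 0 of 13 passed by edgeR and 0 by DESeq2, with 1 at an unadjusted p under 0.05 in each. In KO CD4- cells mt-Co1, a subunit of cytochrome oxidase, rose (0.53 ± 0.16, adjusted p = 0.0236 by edgeR), with overlapping groups. Of 16 nuclear genes that stand for mitochondrial mass or biogenesis, 2 rose and 1 fell in KO CD4+ (18.8%, beside 35.1% of all genes), 2 rose and 1 fell in KO CD4- (18.8%, beside 25.9%), and 2 rose in KO CD8+ cells (12.5%, beside 15.7%). Polg, the mitochondrial DNA polymerase, rose in CD4+ (0.80 ± 0.12, adjusted p = 7.15e-05 by edgeR), CD4- (0.45 ± 0.12, 0.0113) and CD8+ cells (0.72 ± 0.12, 0.000537). Ppargc1b, a coactivator of mitochondrial genes, rose from 3, 9 and 4 to 50, 36 and 31 reads in CD4+ cells (adjusted p = 0.000102) and from 4, 8 and 10 to 35, 18 and 25 reads in CD4- cells (adjusted p = 0.00512). Ppargc1a, a related coactivator, fell from 8, 9 and 18 to 2, 0 and 0 reads in CD4- cells (adjusted p = 0.00257). Gabpa fell in CD4+ cells (-0.31 ± 0.08, adjusted p = 0.00666), and Tomm20, an import receptor of the outer membrane, rose in CD8+ cells (0.32 ± 0.10, adjusted p = 0.0363). Tomm20 held 152.5, 138.7 and 110.0 CPM in the KO and 106.1 to 107.8 CPM in the WT CD8+ libraries, so KO library 3 lay near WT. For these general mitochondrial genes no fits without 1 library are given.

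Between WT populations, 10 pathway genes were higher and 16 lower in CD4+ than in CD8+ cells (59.1%, beside 45.6% of all genes), and 7 were higher and 17 lower in CD4- than in CD8+ cells (54.5%, beside 42.9%). On log2(TPM + 1) the splits were 6 and 7 for CD4+, and 8 and 2 for CD4-, and after scaling of the TPM 6 and 8, and 5 and 8. Like Mdh2, Dlst was higher in both cDC2 populations than in CD8+ cells (0.40 ± 0.06 and 0.22 ± 0.06, adjusted p = 5.72e-05 and 0.00785 by edgeR), and so was Pdha1, a subunit of pyruvate dehydrogenase (0.37 ± 0.06 and 0.59 ± 0.06). Suclg1, a subunit of succinyl-CoA synthetase (-0.45 ± 0.10 and -0.47 ± 0.10), and Pdk1 (-0.86 ± 0.12 and -0.59 ± 0.12) were lower in both. Of the 7 shuttle and carrier genes, 6 were lower in CD4+ than in CD8+ cells and 1, Slc25a11, was higher (0.48 ± 0.09). Got2 held 420.9 CPM in CD8+, 241.0 in CD4+ and 206.3 in CD4- cells (log2 difference to CD8+ of -0.80 ± 0.08 and -1.03 ± 0.09, adjusted p = 7.28e-07 and 6.5e-08 by edgeR). Glud1, glutamate dehydrogenase, was higher in CD4+ (561.4 CPM) and CD4- cells (512.6 CPM) than in CD8+ cells (389.8 CPM), by 0.53 ± 0.06 and 0.39 ± 0.06. Me2 was lower in both (-0.69 ± 0.06 and -0.49 ± 0.06), and Mpc1 was higher in both (0.72 ± 0.10 and 0.40 ± 0.10). Between CD4+ and CD4- cells 4 of 44 passed (9.09%, beside 16.7%), 2 in each direction by count and 0 higher and 3 lower on log2(TPM + 1), or 1 and 3 with upper-quartile scaling. The count was 0 of 44 without WT CD4+ library 1, WT CD4+ library 2 or WT CD4- library 1, 1 without WT CD4+ library 3 or WT CD4- library 3, and 2 without WT CD4- library 2.

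The KO effects themselves were compared between populations by interaction terms. Of the 44 genes, 9 differed between CD4+ and CD8+ cells (20.5%, beside 22.1% of all genes), 3 with a higher and 6 with a lower effect in CD4+ cells, or 3 and 3 on log2(TPM + 1). There were 3 between CD4- and CD8+ cells (6.82%, beside 13.2%), 2 higher and 1 lower, or 1 and 2 with upper-quartile scaling. Between CD4+ and CD4- cells 0 passed by edgeR (beside 3.76% of all genes), with 11 at an unadjusted p under 0.05 and 3 called by DESeq2. Of the genes called, Slc25a10 differed most, with an effect higher by 1.31 ± 0.13 in CD4+ than in CD8+ cells (adjusted p = 2.18e-06 by edgeR) and by 1.00 ± 0.13 in CD4- than in CD8+ cells (7.98e-05). The effect on Got2 was lower by 0.72 on the log2 scale in CD4+ than in CD8+ cells (interaction -0.72 ± 0.12, adjusted p = 0.000316). Of the 3 differences between CD4- and CD8+ cells, 1 was left without WT CD4- library 2, WT CD4- library 3, KO CD4- library 3, WT CD8+ library 1, WT CD8+ library 2 or KO CD8+ library 2. For CD4+ against CD4-, 1 gene passed without KO CD4+ library 1 or without KO CD4- library 3.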

How the data were processed

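RNA from 18 libraries was sequenced as single-end reads, per the labels' protocols. Per the submitters' processing notes, reads were checked with FastQC 0.11.8 and quantified with Salmon 0.14.1, with GRCm38 as the build. The authors deposited 2 tables, of estimated counts (117135 transcripts) and of TPM (84086 transcripts). Transcripts were summed per gene; 37 of 152 without a gene were filled from GENCODE M21 and 115 left out (at most 0.16% of counts). Library totals were 12358884 to 19557469. Rounded sums were fitted with edgeR 4.0.16 (R 4.3.3, filterByExpr, TMM, 1 mean per group, quasi-likelihood F test, two-sided, Benjamini-Hochberg adjustment over 13381 genes, called under 0.05). "Rose" and "fell" mean called. An SE is the log2 difference over the root of F. CPM use TMM library sizes. The fit was tested on simulated data. limma 3.58.1, DESeq2 1.42.0, other scalings, no filter, a replicate block and leaving out libraries were tried. The 9 genes and all lists were chosen with earlier results of these data known. Genes named include up to 4 called per list and comparison with the lowest p and those called in all 3 KO comparisons. They also include the 5 most and least like Mdh2, and neighbours within 100 kb. The result of 1 pathway gene is counted but not reported here.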

Additional observations from a re-analysis of the deposited data

Results flagged for a closer look

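Several KO effects differed between populations. In CD4+ against CD8+ cells the tested differences in log2 KO effect were -0.44 for Suclg2, -0.92 for Mpc2, 0.93 for Pdk2, -0.61 for Pdk3, 0.69 for Got1, -0.72 for Got2, -0.62 for Slc25a12, 1.31 for Slc25a10 and -1.0 for Pcx. Leaving out 1 library ended the call for Got1 (4 libraries, adjusted p by edgeR 0.0519 to 0.063), Mpc2 (7 libraries, 0.0569 to 0.0896) and Pcx (4 libraries, 0.0565 to 0.0669). In CD4- against CD8+ cells they were -0.93 for Mpc2, 0.52 for Pdp2 and 1.0 for Slc25a10, of which Mpc2 and Pdp2 were lost without any of 9 and 8 libraries. In CPM, Idh1, Mdh1 and Fh1 had WT and KO libraries apart in opposite directions. In TPM these libraries overlapped for Fh1 in CD4- and for Mdh1 in CD8+ cells. The difference in log2 KO effect against CD8+ cells was 2.57 in CD4+ and 1.86 in CD4- cells for Idh1, -0.61 and -0.34 for Mdh1, and 0.62 in CD4- cells for Fh1. These 3 genes were chosen with their values known, so their differences are a description without a p-value, and nothing is read from whether they passed. The Mdh1 difference of -0.34 no longer passed an adjusted p of 0.05 by edgeR without any 1 of several libraries, named above.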

How the results depend on the processing

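With log2(TPM + 1), log2(TPM + 0.1) and no filter on TPM, KO against WT gave 13 called pathway genes in CD4+ cells (the last 2 settings) and 10, 10 and 9 in CD8+ cells. WT CD4+ against CD8+ gave 13, 13 and 10, WT CD4- against CD8+ gave 10, 10 and 8, and without a filter on TPM the interactions of CD4+ and CD4- with CD8+ gave 4 and 1. After scaling of the TPM between libraries, chosen after seeing the data, the counts were 10 and 5 for KO CD4+ and CD4-, 14, 13 and 1 for the WT comparisons, and 5 for the CD4+ with CD8+ interaction. Without a filter on counts, WT CD4+ against CD4- gave 1, and with only the groups compared the CD4- with CD8+ interaction gave 1. DESeq2 gave 3 for the CD4+ with CD4- interaction. Leaving out 1 library gave 13 to 18, 4 to 8 and 3 to 5 for the KO comparisons, 22 to 26, 17 to 22 and 0 to 2 for the WT comparisons, and 7 to 10, 1 to 3 and 0 to 1 for the interactions. With a replicate block the interactions gave 14, 5 and 2 genes, the KO comparisons 22, 13 and 5 and the WT comparisons 27, 26 and 6. Same-numbered libraries deviated together within a genotype (r 0.054 to 0.262, 18 of 18 libraries nearest their own number, a hint from the data only) and less so across genotypes (r -0.047 to 0.15, 7 of 18). In none of the WT comparisons, nor in any KO against WT comparison, was r over 0.1 for every pair, so the numbers were not taken as pairs. For KO CD8+ libraries r was over 0.1 in every pair with KO CD4+ (0.148, 0.177 and 0.181) and KO CD4- libraries (0.247, 0.221 and 0.262). KO CD4+ with KO CD4- libraries gave 0.212, 0.058 and 0.104. The interactions use these KO libraries, and their main fit had no block. Mdh2 differed by -2.28 (CD4-, also -2.29 at the smaller pseudocount) and -1.13 (CD8+) on the TPM scale. Mdh2-203 took 50.8%, 56.5%, 52.2%, 58.4%, 59.2% and 64.0% of counts in WT and KO CD4+, CD4- and CD8+ cells, against 37.3%, 39.7%, 37.4%, 39.8%, 40.5% and 44.5% of TPM. Other pathway genes that were not called on either scale also crossed zero on TPM. Of genes called on at least 1 of the scales in a KO comparison, signs turned on TPM for Idh3g (-0.03), Me2 (-0.21 to -0.22) and, without a filter, Pcx (0.19), all in CD4- cells, and for Slc25a1 in CD8+ cells (-0.36 to -0.37). The cause was not tested. Depth limits Styxl1, Acod1 and Pcx.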
